A study of Mus musculus with 7 samples.

Results

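The forkhead genes encode transcription factors that share the winged-helix DNA-binding domain, and they were taken here as every row of the gene table whose mouse symbol is Fox, a letter from a to s, a number and at most 1 further letter. Of the 34592 genes in the table, 44 met this rule, and 30 of these had enough reads in the 7 tumors to enter the test. The family is split by letter into subfamilies whose members differ outside the DNA-binding domain. In the brain and its coverings, FOXC1, FOXF2 and FOXD1 are known from pericytes, meningeal fibroblasts and their progenitors and FOXJ1 from cells with motile cilia, whereas FOXM1 belongs to dividing cells and the FOXO, FOXK and FOXP proteins are found in many cell types. FOXO proteins are held in the cytoplasm by 14-3-3 proteins once AKT has phosphorylated them, which links them to PI3K signaling.

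RNA was sequenced from 7 mouse Group 3 medulloblastomas (G3 MBs), 4 that overexpressed human WDR11 (WDR11OE) and 3 that did not (controls), to compare gene expression between the 2 groups. All 7 tumors came from tumorsphere line 19568, a single line that started from cerebellar granule neuron progenitors of Trp53-/-; Cdkn2c-/- mice at postnatal day 7, transduced with a retrovirus for Myc and GFP. The methods name GFP for this retrovirus, while a figure legend names RFP for the same line. The spheres were infected with a lentivirus for WDR11 and copGFP under the EF1 promoter. Controls received, according to the treatment protocol, the vector without WDR11. All spheres were then placed in the cortices of CD-1 nu/nu mice. The methods give a host age, 6 to 8 weeks, for the transplant of the progenitors and none for that of the infected spheres. The characteristics field lists the controls with the treatment none. The nude host lacks functional Foxn1, itself a forkhead gene, and so lacks most T cells, but its vessels, meninges, glia and neurons remain and can be part of a tumor piece. In such bulk RNA, fewer cells of a type and less RNA per cell cannot be told apart.

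The deposited values are whole-number read counts per gene, with totals between 32116095 and 87141305 per tumor. They were scaled with TMM factors to CPM, the counts of a gene per 1000000 reads, and the groups were compared with edgeR's quasi-likelihood test over the 17389 genes that passed the filter on low counts. A gene is said to have passed the test, and to be lower or higher in the WDR11OE tumors, where the Benjamini-Hochberg adjusted p was under 0.05. Mouse Wdr11, the row nearest to the transgene, had a log2 fold change of 0.16 with an adjusted p of 0.0910, and reads of the human transgene were not counted separately. Library names of each group follow a numbering of their own, so that preparation and condition cannot be told apart, and tumors 1 and 2 of the WDR11OE group share a number in their titles. The granule lineage gene Atoh1 had no count in any of the 7 tumors, whereas Myc, which the retrovirus also carried, lay between 278 and 1109 CPM.

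Of the 30 tested forkhead genes, 18 (60.0%) were lower in the WDR11OE tumors, beside 15.8% of all tested genes. Only Foxe1 was higher, beside 18.1% of all tested genes, and the other 11 did not pass. In either direction, 33.9% of all tested genes passed. The fold change was below 0 for 26 and above 0 for 4 of the 30. Their median log2 fold change was -0.79, against 0.08 over all tested genes. A further limit of 2-fold and an average log2 CPM above 0 left 9 lower genes (30%, beside 3.45% of all tested genes) and 1 higher (beside 2.36%). In 19 members (63.3%) every WDR11OE tumor lay below every control, beside 19.1% of all tested genes, and in Foxe1 every one lay above, beside 23.5%. Foxf1a was the one lower gene whose groups overlapped, while Foxc1 and Foxo4 did not overlap and did not pass.

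Added over all 44 members, forkhead transcripts made up 1176, 1236 and 1288 CPM in the controls and 722, 725, 771 and 658 CPM in the WDR11OE tumors. The sum was thus lower in each of the 4 WDR11OE tumors than in any control. An exact two-sided permutation test of each gene over the 35 splits of the tumors gave its smallest possible value, p = 0.0286, for 17 of the 30 tested members, beside 35.5% of all tested genes in either direction. These p-values measure the spread between tumors of a single line.

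**Figure D1:**
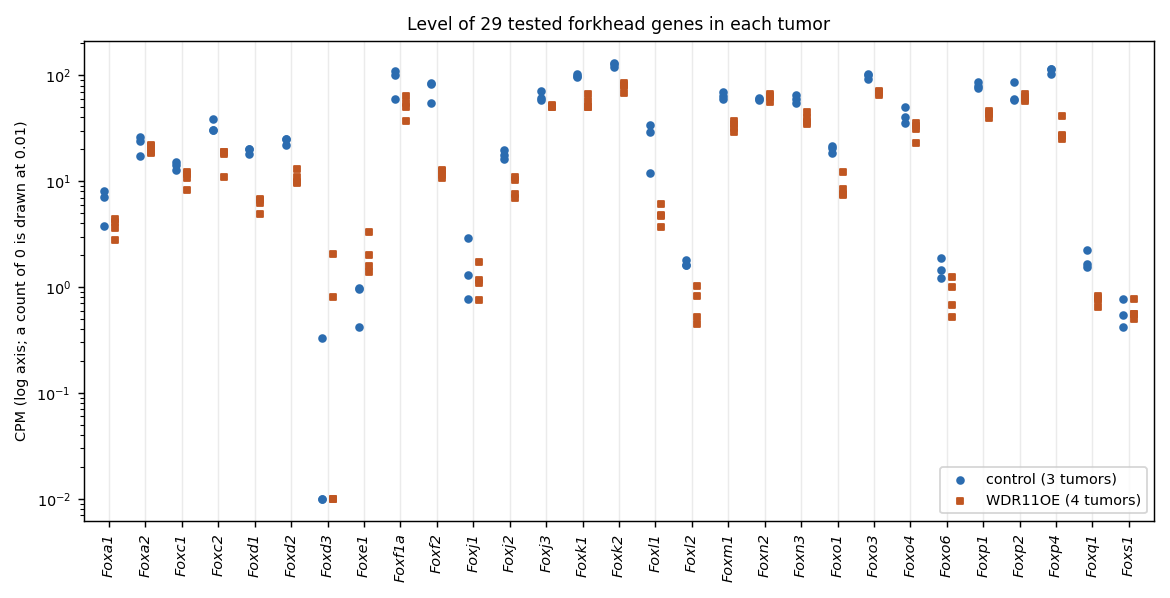
Level of 29 tested forkhead genes in CPM on a log axis, with circles for the 3 control tumors and squares for the 4 WDR11OE tumors; a count of 0 is drawn at 0.01. Foxf2, Foxl1, Foxp4 and Foxd1 show the widest gaps between the groups, and Foxn2 and Foxs1 overlap.

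The promoters of 4 members are shown as the 250 bases before the start site, 5′ to 3′ on the strand of the gene, with each CG dinucleotide in capitals. Foxf2 had the largest drop of the family, Foxc1 is its neighbor on chromosome 13 and did not pass the test, and Foxp4 and Foxd1 were the next lower genes for which a promoter was at hand. The sequences are from RefSeq (promoter table of build GRCm38) and were placed by an exact match on NCBIM37 (mm9), at chr13:31717435-31717684 for Foxf2, chr13:31898265-31898514 for Foxc1, chr17:48061582-48061831 (minus strand) for Foxp4 and chr13:99123950-99124199 for Foxd1, with the plus strand for all but Foxp4.
Foxf2: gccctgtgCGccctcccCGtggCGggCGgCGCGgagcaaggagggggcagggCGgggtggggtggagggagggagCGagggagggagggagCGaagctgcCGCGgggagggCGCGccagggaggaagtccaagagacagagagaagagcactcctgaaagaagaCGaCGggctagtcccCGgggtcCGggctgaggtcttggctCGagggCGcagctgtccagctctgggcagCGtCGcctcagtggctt
Foxc1: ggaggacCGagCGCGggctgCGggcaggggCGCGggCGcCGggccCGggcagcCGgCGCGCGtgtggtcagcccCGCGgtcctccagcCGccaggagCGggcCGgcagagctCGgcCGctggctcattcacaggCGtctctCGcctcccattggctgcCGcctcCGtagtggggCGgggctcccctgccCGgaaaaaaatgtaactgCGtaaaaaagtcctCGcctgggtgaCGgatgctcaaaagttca
Foxp4: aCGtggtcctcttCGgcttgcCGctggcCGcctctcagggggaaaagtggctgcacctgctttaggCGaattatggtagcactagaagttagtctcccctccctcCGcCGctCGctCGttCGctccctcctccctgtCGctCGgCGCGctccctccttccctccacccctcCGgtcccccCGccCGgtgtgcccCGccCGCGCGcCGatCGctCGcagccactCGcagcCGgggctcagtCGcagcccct
Foxd1: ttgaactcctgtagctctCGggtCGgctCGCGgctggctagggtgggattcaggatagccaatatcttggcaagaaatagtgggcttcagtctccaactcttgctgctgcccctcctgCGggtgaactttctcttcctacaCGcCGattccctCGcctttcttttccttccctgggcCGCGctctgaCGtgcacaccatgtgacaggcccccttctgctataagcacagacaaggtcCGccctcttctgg

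These stretches held 21 CG dinucleotides before Foxf2, 29 before Foxc1, 27 before Foxp4 and 12 before Foxd1. The table had promoters for 28 of the 44 members. The 14 promoters of 12 lower members had a median of 21.5 CG dinucleotides. For the 6 promoters of 4 tested members that were not lower it was 20.5. The 13 promoters of 12 members that were not tested had a median of 7, and all 32851 promoters had a median of 6. Searched on both strands, the E-box CACGTG bound by MYC was in none of the 14 promoters of lower members, beside 6.02% of all promoters. The forkhead core TGTTTAC (3.17% of all) and the TCF core CTTTGAT (3.21% of all) were in none of them either. Of the 6 promoters of tested members that were not lower, 1 held the E-box and 1 the forkhead core. With shares this low over all promoters, 14 promoters are too few to tell an absence from those shares. A motif being absent from the 250 bases also says nothing of binding elsewhere.

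FOXF proteins are known from mesenchyme, where FOXF2 is required in brain pericytes for the blood-brain barrier and FOXF1 in lung and vessels. Foxf2 was at 54.3, 83.2 and 84.4 CPM in the controls and at 12.5, 11.5, 12.8 and 10.7 CPM in the WDR11OE tumors. The 4 WDR11OE tumors were close together, and the lowest control was far above all of them. Its log2 fold change was -2.64 (SE 0.17), a 6.24-fold lower level with an adjusted p of 0.000858 by edgeR's quasi-likelihood test. Per kilobase of exon, the mean level of Foxf2 was 31.3 CPM in the controls and 5.02 CPM in the WDR11OE tumors. Foxf1a, which encodes FOXF1, had the highest level per kilobase in the family, with a mean of 55.8 CPM over the 7 tumors, and was at 60.3, 101 and 110.3 CPM in the controls and 63.1, 55.2, 50.3 and 36.7 CPM in the WDR11OE tumors. One control lay within the range of the WDR11OE tumors. Its log2 fold change was -0.82 (SE 0.24), with an adjusted p of 0.0372. The call was lost in 7 of 18 other settings, among them the removal of a trend with GC content (adjusted p = 0.270).

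Foxq1, Foxf2 and Foxc1 lie in this order on the plus strand of chromosome 13 (NCBIM37 chr13:31650039-31652839, chr13:31717685-31723272 and chr13:31898515-31902504). Foxq1, known for its role in the hair shaft and in gastric mucus, was low, at 1.67, 2.22 and 1.56 CPM in the controls and 0.782, 0.749, 0.832 and 0.646 CPM in the WDR11OE tumors, with groups that did not overlap. It was 2.42-fold lower (log2 fold change -1.27, SE 0.23, adjusted p = 0.00534 by edgeR's quasi-likelihood test). Exons of the antisense gene A530084C06Rik overlap 1164 bases of Foxq1, and this gene was also lower, by -1.94 on the log2 scale. Since no strand setting of the counting was given, reads of the pair cannot be told apart. Foxc1, a gene of meningeal development, was at 12.8, 15.1 and 14.1 CPM in the controls and at 10.8, 12.1, 11.7 and 8.23 CPM in the WDR11OE tumors. The groups stood apart by a small step, and the log2 fold change of -0.39 (SE 0.16) did not pass (adjusted p = 0.107).

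Within 1000 kb of the start of Foxf2, 9 genes outside the family were tested, of which 2 were lower and 0 higher, beside 15.8% and 18.1% of all tested genes. By edgeR's quasi-likelihood test these were A530084C06Rik and 1700018A04Rik, a noncoding transcript between Foxq1 and Foxf2 with a log2 fold change of -2.53 (adjusted p = 0.00238), both named after their values were seen. It was at 8.70, 4.79 and 5.73 CPM in the controls and 0.900, 0.749, 1.79 and 1.04 CPM in the WDR11OE tumors. Gmds, the large gene next to Foxc1, had a log2 fold change of 0.34 and did not pass (adjusted p = 0.0927). A further list held 13 genes around the trio, all tested, without the 2 lower genes above. In it 0 were lower and 3 higher, and these 3 are not among the 9 genes within 1000 kb. Its median was 0.44 and its lowest value -0.31 for Exoc2, which did not pass. The highest, Mylk4, was at 0, 0.0238 and 0.0613 CPM in the controls and between 0.524 and 1.26 CPM in the WDR11OE tumors, and its controls were at or under 3 reads.

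**Figure D2:**
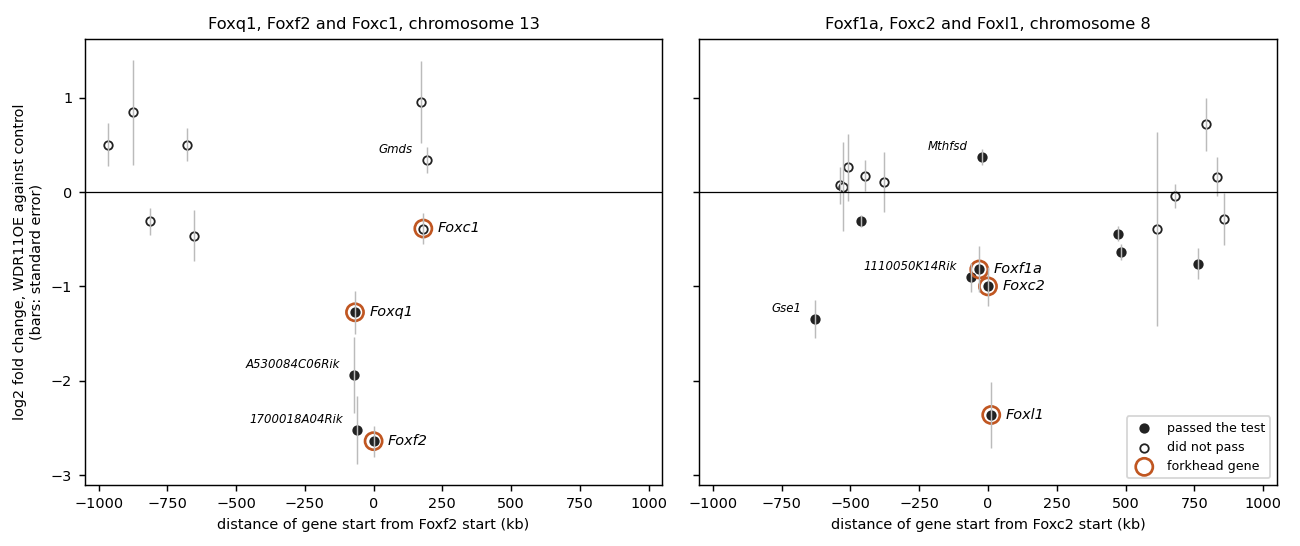
Log2 fold change (WDR11OE against control, bars of 1 standard error) of each tested gene against the distance of its start from that of Foxf2 (left) or Foxc2 (right) in kb, with filled points for genes that passed the test and rings around forkhead genes. On the left Foxf2 (-2.64) and Foxq1 (-1.27) lie below Foxc1 (-0.39), and on the right Mthfsd (0.37) lies between Foxf1a and Foxc2.

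On chromosome 8, Foxf1a (NCBIM37 chr8:123608286-123610851), Foxc2 (chr8:123640071-123642792) and Foxl1 (chr8:123651840-123652929) form the other cluster of the family. Foxl1, known from the mesenchyme under the gut epithelium, was at 12.03, 29.2 and 33.6 CPM in the controls and at 4.83, 4.72, 3.73 and 6.07 CPM in the WDR11OE tumors. Control replicate 1 lay closest to the WDR11OE tumors but still above them all. The gene was 5.15-fold lower (log2 fold change -2.36, SE 0.35, adjusted p = 0.00273), and the annotation release used here lists it as a pseudogene. Foxc2, a gene of lymphatic vessels and mesenchyme, was at 38.9, 30.2 and 30.6 CPM in the controls and at 18.7, 18.7, 18.1 and 10.9 CPM in the WDR11OE tumors. One WDR11OE tumor was well below the other 3, and the groups did not overlap. Its log2 fold change of -0.9999 (SE 0.21, adjusted p = 0.00946) lay just short of the 2-fold limit, and with the GC trend removed it was -0.62 and no longer passed (adjusted p = 0.0570).

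Between Foxf1a and Foxc2 sits Mthfsd, which was higher by 0.37 on the log2 scale (adjusted p = 0.0116). Of the 17 other genes tested within 1000 kb of Foxc2, 6 were lower and 1, Mthfsd, was higher, beside 15.8% and 18.1% of all tested genes. 1110050K14Rik, beside Foxf1a and named after its values were seen, had a log2 fold change of -0.90 (adjusted p = 0.00430). In the list of genes beside this cluster 5 of 10 were lower and 1 higher, beside the same 15.8% and 18.1%, from Gse1 at -1.34 to Mthfsd. All of these 10 but Fbxo31 are also among the 17 genes above, so the counts are not independent.

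FOXD proteins act in neural crest and stromal progenitors, and Foxd1 marks the stroma that gives rise to pericytes in the kidney. Foxd1 was at 20.3, 18.1 and 19.9 CPM in the controls and at 6.68, 6.19, 6.81 and 4.89 CPM in the WDR11OE tumors. The spread within each group was small beside the gap between them. It was 3.17-fold lower (log2 fold change -1.66, SE 0.15, adjusted p = 0.000932). Foxd2 was at 25.2, 21.98 and 24.8 CPM in the controls and at 11.1, 12.9, 9.89 and 9.68 CPM in the WDR11OE tumors, again without overlap (log2 fold change -1.14, SE 0.13, adjusted p = 0.00130). Foxd3, a neural crest gene, had the largest fold change of the genes that did not pass, 2.60 with an SE of 2.01 (adjusted p = 0.368). Reads of Foxd3 were found in 3 tumors, at 0.334 CPM in control replicate 2 and at 0.801 and 2.07 CPM in WDR11OE replicates 3 and 4.

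The FOXP proteins are repressors that pair with each other through a leucine zipper. Foxp4 was at 103, 114 and 115 CPM in the controls and at 25.2, 26.8, 41.3 and 27.5 CPM in the WDR11OE tumors. Even the highest WDR11OE tumor stayed far below the lowest control. The level was 3.67-fold lower (log2 fold change -1.88, SE 0.17, adjusted p = 0.00104), and per kilobase it went from 22.5 to 6.14 CPM. Foxp1 was 1.86-fold lower (log2 fold change -0.90, SE 0.08, adjusted p = 0.000917), with 76.5 to 86.9 CPM in the controls and 39.4 to 45.8 CPM in the WDR11OE tumors. Foxp2, known for its role in vocal learning, did not pass (log2 fold change -0.15, adjusted p = 0.484): one control was at 86.8 CPM, and the other controls, at 58.1 and 59.1 CPM, lay within the 56.9 to 66.2 CPM of the WDR11OE tumors. Foxp3, the factor of regulatory T cells, was not tested, with at most 2 reads in any tumor.

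Of the FOXO genes, which act in stress resistance and growth arrest when growth factor signals are low, Foxo1 and Foxo3 were lower. Foxo1 was at 20.6, 21.3 and 18.3 CPM in the controls and at 7.63, 7.44, 12.2 and 8.51 CPM in the WDR11OE tumors. No WDR11OE tumor reached the controls, and the log2 fold change was -1.17 (SE 0.19, adjusted p = 0.00408). For Foxo3 it was -0.51 (SE 0.06, adjusted p = 0.00151), from 92.1 to 102 CPM in the controls to 64.9 to 70.9 CPM. Foxo4 (-0.46, adjusted p = 0.0763) and the neuronal Foxo6 (-0.82, adjusted p = 0.109) did not pass.

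**Figure D3:**
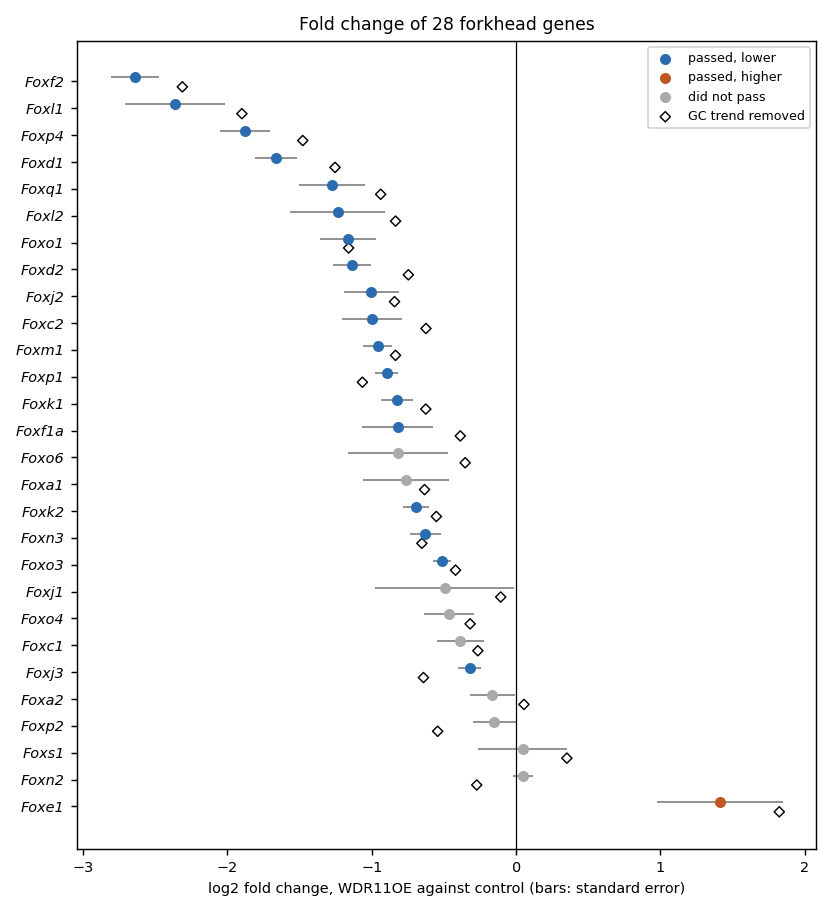
Log2 fold change of 28 tested forkhead genes (filled points, bars of 1 standard error; Foxd3, with an SE of 2.01, is left off) and the same value with the GC trend removed (open diamonds). Foxf2 is at -2.64 and, with the GC trend removed, at -2.31, and Foxe1 is the only member that passed to the right of 0.

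Foxm1, which drives genes of the G2 phase and mitosis, was at 59.5, 63.5 and 70.0 CPM in the controls and at 31.9, 34.7, 37.01 and 28.8 CPM in the WDR11OE tumors. The groups were well separated, with a log2 fold change of -0.96 (SE 0.10, adjusted p = 0.00112). Both FOXK genes, which encode repressors of autophagy and regulators of glucose use, were lower. Foxk2 was at 120.1, 132 and 127 CPM in the controls and at 79.8, 85.0, 80.4 and 67.5 CPM in the WDR11OE tumors, without overlap (log2 fold change -0.69, SE 0.09). Foxk1 had a log2 fold change of -0.83 (SE 0.11), and the adjusted p was 0.00184 for Foxk1 and 0.00164 for Foxk2.

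The FOXN3 protein represses transcription in the response to DNA damage. Foxn3 was at 59.5, 55.3 and 64.6 CPM in the controls and at 39.3, 36.0, 44.9 and 34.7 CPM in the WDR11OE tumors, and its groups did not overlap (log2 fold change -0.63, SE 0.11, adjusted p = 0.00426). Its relative Foxn2 did not pass, with 58.8 to 61.1 CPM in the controls and 56.1 to 65.9 CPM in the WDR11OE tumors (log2 fold change 0.05, SE 0.07, adjusted p = 0.642). Foxn1, needed for the thymus and hair, had 1 read in each of 2 controls and 0 in the WDR11OE tumors. Per kilobase, the 5 highest members over all tumors were Foxf1a (55.8), Foxk2 (17.7), Foxn3 (16.9), Foxf2 (16.3) and Foxp4 (13.2 CPM).

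Among the FOXJ genes, Foxj2 was at 19.9, 17.5 and 16.1 CPM in the controls and at 6.87, 7.56, 10.3 and 10.8 CPM in the WDR11OE tumors. All WDR11OE tumors lay below the controls, with a log2 fold change of -1.004 (SE 0.19, adjusted p = 0.00703). Foxj3 was lower by a smaller step (-0.32, SE 0.08, adjusted p = 0.0186). Foxj1, the master gene of motile cilia, was at 1.31, 2.91 and 0.766 CPM in the controls and at 1.09, 0.761, 1.73 and 1.17 CPM in the WDR11OE tumors. These ranges overlapped and Foxj1 did not pass (log2 fold change -0.50, adjusted p = 0.479).

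Foxe1, a thyroid gene, was the one member that was higher, at 0.417, 0.978 and 0.950 CPM in the controls and at 1.59, 2.02, 1.39 and 3.31 CPM in the WDR11OE tumors. Each WDR11OE tumor lay above the controls, at low levels throughout, and 8 of 18 other settings of the analysis lost the call. Its log2 fold change was 1.41 (SE 0.44, adjusted p = 0.0422), and the noncoding Gm12446 overlaps 102 bases of it on the opposite strand. Foxl2, a gene of the ovary, was at 1.61, 1.79 and 1.62 CPM in the controls and at 0.450, 0.524, 0.832 and 1.03 CPM in the WDR11OE tumors, with no overlap and a log2 fold change of -1.24 (SE 0.33, adjusted p = 0.0248). It no longer passed without any one of the controls, nor with the GC trend removed (adjusted p = 0.110).

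The pioneer factor genes Foxa1 (log2 fold change -0.76, adjusted p = 0.0883) and Foxa2 (-0.17, adjusted p = 0.463) did not pass. Foxs1, known from pericytes and sensory neurons, had the smallest change of the genes that did not pass, 0.04 (SE 0.31), with 0.417 to 0.766 CPM in the controls and 0.497 to 0.770 CPM in the WDR11OE tumors.

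The 14 members that did not enter the test were Foxa3, Foxb1, Foxb2, Foxd4, Foxe3, Foxh1, Foxi1, Foxi2, Foxi3, Foxn1, Foxn4, Foxp3, Foxr1 and Foxr2. The highest count among them was 21 reads and the highest level 0.230 CPM. Foxi2 had no read in any tumor, which in the smallest library allows a level of up to 0.0924 CPM. That limit is the level of 3 reads and covers counting error only. Among tested members not yet mentioned in this respect, exons are shared with another gene over 674 bases in Foxo1 and 158 in Foxj2 (opposite strand), and over 144 bases in Foxm1, 89 in Foxd3, 75 in Foxp1 and 26 in Foxk2 (same strand). How reads in such stretches were counted is not given, and the effect on the counts of these members was not tested.

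The exons of forkhead genes are rich in G and C, with a median of 57.4% over the 30 tested members, against 49.8% over all tested genes. With all tested genes put into 5 equal bins from low to high GC content, 3.71%, 10.2%, 16.9%, 21% and 27% of the genes in a bin were lower, so the share moved with GC content over the whole table. The highest bin held 17 of the 30 members, and 10 of these were lower. Once the trend of fold change with exon GC content was taken out, 16 members (53.3%) were lower, beside 14.3% of all tested genes, and Foxe1 was still higher, beside 11.2%. The median of the members was then -0.63. There were 15 members that were lower in both analyses, while Foxc2, Foxf1a and Foxl2 lost the call and Foxp2 gained it (log2 fold change -0.54, adjusted p = 0.0196). The part of GC content in the differences was not tested beyond this correction.

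**Figure D4:**
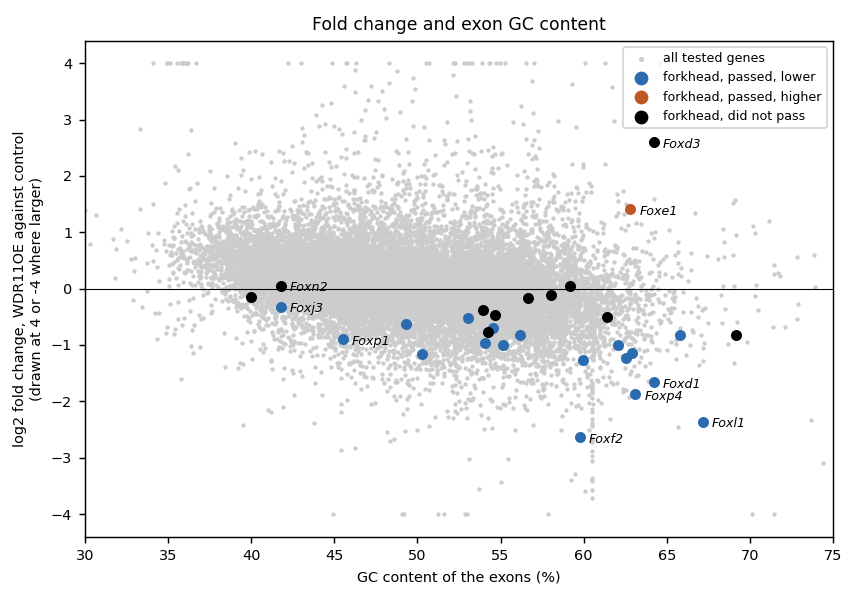
Log2 fold change against GC content of the exons in percent, with all tested genes as gray points and forkhead genes as large points coded by the test; values beyond the limits of 4 up or down are drawn there. Most forkhead genes lie to the right of the median of 49.8% GC, with Foxj3, Foxp1 and Foxn2 on the left and Foxf2, Foxl1, Foxp4 and Foxd1 at the lower edge.

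Genes that act on or below forkhead proteins were read from lists, whose counts stand beside 15.8% lower and 18.1% higher of all tested genes. Of 26 tested genes that act on FOXO proteins, which are PI3K-AKT signaling and 14-3-3 genes together with Crebbp, Ep300, Sirt1, Usp7 and Skp2, 14 were lower and 4 higher, with a median log2 fold change of -0.46. The lowest was the FOXO coactivator Crebbp (-1.25, adjusted p = 0.00187) and the highest Ywhaq (0.53, adjusted p = 0.00596), which encodes a 14-3-3 protein. Akt1 (-0.73) and Akt2 (-0.63) were among the lower genes. Of 30 tested textbook FOXO targets, 12 were lower and 4 higher, beside the same 15.8% and 18.1% of all tested genes, with a median of -0.16. The lists share some genes, so their counts are not independent. Insr and Irs2, both lower, are in this list and the one before, and Skp2 is also among the FOXM1 targets. Klf4 was the lowest (-1.39, adjusted p = 0.00163). Trim63, which had the highest fold change, was at 0.0306 to 0.0715 CPM in the controls, which is at most 3 reads, and at 0.112 to 0.493 CPM in the WDR11OE tumors.

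Of 25 tested textbook FOXM1 targets, 3 were lower and 6 higher, shares near the 15.8% and 18.1% of all tested genes. Their median was 0.15, and they ran from Plk1 (-0.72, adjusted p = 0.0199) to Top2a (0.70, adjusted p = 0.00593). Cdk1 (0.62) and Ccnb1 (0.60) were among those higher. With the GC trend removed, 1 was lower and 1 higher. Of 15 tested cilia genes below FOXJ1, 1 was lower (Rfx2, -1.45) and 1 higher (Mlf1, 0.98), and Rsph1, which has the lowest value at -1.45, did not pass.

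**Figure D5:**
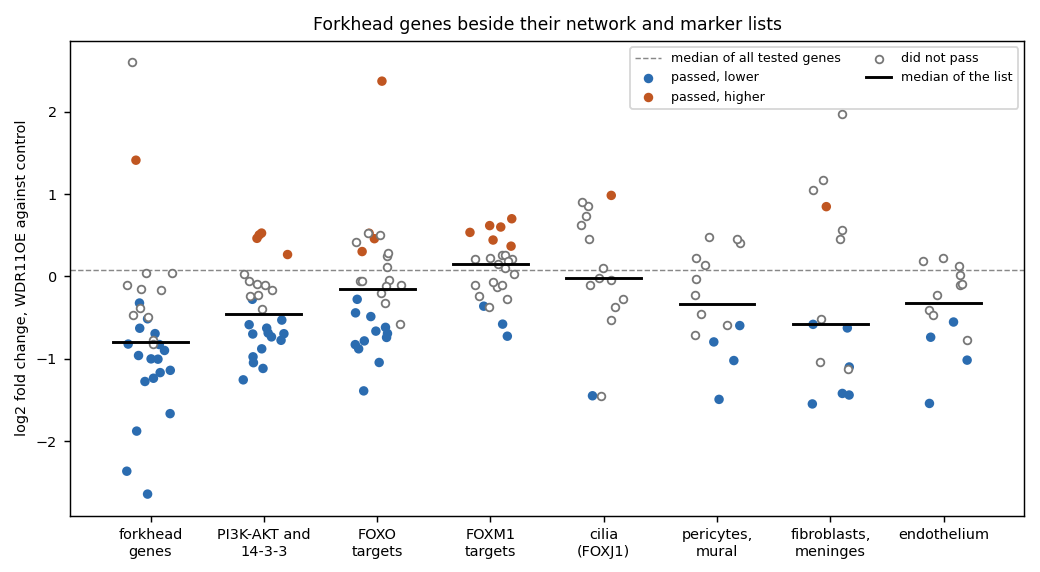
Log2 fold change of each tested gene (points, coded by the test, spread sideways for legibility) of the forkhead family, 4 lists of genes that act on or below forkhead proteins and 3 marker lists, with the median of each as a bar and that of all tested genes (0.08) as a dashed line. The forkhead median (-0.79) is the lowest shown, and that of FOXM1 targets (0.15) lies above the dashed line.

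Markers of the cell types in which forkhead genes of the C, D, F and S groups are known were counted beside the 15.8% lower and 18.1% higher of all tested genes. Of 14 tested pericyte and mural markers, 4 were lower (Anpep, Notch3, Cspg4 and Pdgfrb) and 0 higher, from Anpep (-1.49) to Higd1b (0.47). The 10 that did not pass lay on both sides of 0. Above it were Rgs5 (0.22), Vtn (0.41), Tagln (0.14), Des (0.45) and Higd1b, and below it Abcc9 (-0.71), Kcnj8 (-0.04), Acta2 (-0.45), Myh11 (-0.59) and Ndufa4l2 (-0.22). The summed level of the list was 780 to 835 CPM in the controls and 405 to 574 CPM in the WDR11OE tumors. Of 15 markers of meningeal and perivascular fibroblasts, 6 were lower and 1 higher, with sums of 5439 to 7044 CPM against 2111 to 2938 CPM. Most of this sum was Col3a1 (mean 2971 and 1111 CPM) and Igf2 (1740.1 and 642 CPM), and Cspg4 (516 and 297 CPM) made up most of the pericyte sum. Tbx18 was the lowest (-1.55), while Dcn (1.05), Lum (0.46) and Slc6a13, the highest at 1.98, did not pass, and Cp was higher (0.85), all at levels that add little to the sum. For the endothelium 4 of 14 were lower and 0 higher, from Eng (-1.54) to Slco1c1 (0.22), with sums of 224 to 272 CPM against 165 to 175 CPM. With the GC trend removed, 3 pericyte and mural, 6 fibroblast and 3 endothelial markers were lower, beside 14.3% of all tested genes. In each list 0 were then higher, beside 11.2%. Among those that lost the call by edgeR's quasi-likelihood test were Cspg4 (adjusted p = 0.0587) and Cp (adjusted p = 0.218). None of the markers of these 3 lists was at 0 in a tumor. The part of these cells in the lower levels of Foxf2, Foxf1a, Foxl1, Foxc2, Foxd1 and Foxd2 was not tested.

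Neuron markers spread widely within both groups, with sums of 105 to 556 CPM in the controls and 24.3 to 734 CPM in the WDR11OE tumors, and only Neurod6 was at 0 in some tumors. With their mean level as a covariate, 22 of the 30 forkhead genes were lower (73.3%, beside 19.1% of all tested genes in the same fit, up from 15.8%), and the log2 fold change of Foxf2 was -2.73. Of 14 neuron markers 1 was lower and 0 higher, and the ends of the list were Nrgn (-2.51) and Gad1 (2.28), which did not pass. Among 10 astrocyte markers 0 were lower and 1 was higher (S100b, 0.94), with Slc1a2 at the low end (-1.23). Of 10 oligodendrocyte markers and 11 microglia markers none passed, with values from -0.88 (Mobp) to 0.05 (Olig2) and from -0.71 (Cd68) to 0.92 (Aif1), and neither list has a gene at 0 in a tumor. Of T cell markers only Lck (0.41) had enough reads to be tested, and it did not pass, while Cd3e was at 0 in 6 of 7 tumors. The list of ependyma and choroid plexus had 1 lower gene of 5, Clic6, and ran from Ttr (-2.83) to Aqp1 (2.14), neither of which passed. Of 10 genes of the granule lineage and of medulloblastoma, 2 were lower, Myc (-1.40) and Gli2, the lowest at -1.70, and Mycn was the highest (0.82) and did not pass. Reads of the Myc retrovirus were not counted separately and may be part of the Myc row.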

How the data were processed

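RNA was measured in 4 WDR11OE and 3 control tumors. The authors deposited raw counts of reads per gene and tumor, made with HTSeq from alignments to NCBIM37.67 (mm9) and not normalized. The submitters' processing notes name CASAVA 1.7, STAR, BWA and HTSeq. The strand setting of HTSeq and a filter on low counts are not given in the sources used here. The labels name the TruSeq RNA kit v2, while the methods describe stranded total RNA.

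In R 4.3.3, edgeR 4.0.16 removed genes with few counts (filterByExpr at its defaults), computed TMM factors and ran its quasi-likelihood test, two-sided, on the condition alone, and p-values were adjusted by Benjamini-Hochberg over all 17389 genes. The limit of 2-fold and of an average log2 CPM above 0 follows the study. Single genes were also compared by the exact permutation of mean log2 CPM (prior count 2) over 35 splits, two-sided. Exon length, GC content and coordinates came from the GENCODE annotation of NCBIM37 (Ensembl release 65), matched for 33606 of 34592 genes (97.1%). Levels per kilobase are CPM divided by exon length. GC content and length were corrected with a lowess of the per-tumor deviations (span 0.4) as an offset. Totals of 32116095 to 87141305 counts limit precision less than the spread between tumors, which was 34.6% as the common biological coefficient of variation. On simulated counts for the same comparison, with 200 of 17128 genes changed by 1.50 on the log2 scale, 56% were recovered and 3.45% of the calls were false. The simulated counts held no GC trend, no difference in preparation and a far smaller share of changed genes than passed here. These 2 shares therefore do not carry over to the calls reported.

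The family, the lists of genes and the tests were chosen with earlier results of these data known. Values per tumor are given for members past the test and 2-fold, the clusters on chromosomes 13 and 8, the 5 members of the highest level per kilobase, Foxm1, Foxn1, Foxp3 and Foxj1, and the members that did not pass with the largest and smallest change. From each list the genes with the lowest and highest fold change are named. Akt1, Akt2, Insr, Irs2, Cdk1, Ccnb1, Dcn, Lum, Rfx2, Ep300, Sirt1, Usp7, Skp2, Col3a1, Igf2, Cspg4, Cp, Cd3e, Clic6, Myc and the other pericyte markers were added after their values were seen. Alternatives were voom (limma 3.58.1), DESeq2 1.42.0, other scalings and filters, corrections for GC content, exon length and neuron markers, WDR11OE tumors 1 and 2 summed, and leaving out each tumor in turn. Replicate numbers are names only. In all, 1 tested member of the family, which is in all counts, and some list genes are not reported singly here.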

Additional observations from a re-analysis of the deposited data

Results flagged for a closer look

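Foxc2 in WDR11OE replicate 4 stood apart from the other 3 WDR11OE tumors. It was at 10.9 CPM there, and the gap to the nearest of the others took up 0.941 of the range of the group, above Dixon's 95% critical value for 4 samples. The log2 CPM of 31 genes (the 30 tested forkhead genes and Wdr11) was examined in this way in the WDR11OE group, and chance alone gives such a flag in about 1 of 20 groups.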

How the results depend on the processing

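The 18 alternatives left between 16 and 22 forkhead genes lower, beside 10.2% (no filter) to 19.3% (DESeq2) of all tested genes, and 14 of the 18 lower genes passed in every one. The calls that were lost were Foxc2 with the GC trend removed, Foxj3 with the length trend removed or without WDR11OE replicate 1, Foxl2 with the GC trend removed or without any one of the controls, and Foxf1a with the GC trend removed, with WDR11OE tumors 1 and 2 summed, and without control replicate 2 or 3 or WDR11OE replicate 1, 2 or 3. The higher count of 1 (Foxe1), also at 2-fold, was 0 with no filter and with tumors 1 and 2 summed, and ranged from 0 to 1 when a tumor was left out, being 0 without any one tumor but WDR11OE replicate 3. Of 518 values of single genes, 474 kept their direction and side of the threshold, 22 lost and 9 gained the call, and 13 changed sign, none of them in a gene that had passed. The changes of sign were Foxs1 with DESeq2 (-0.0065), RLE scaling (-0.0033), no filter (-0.0152) and the length trend removed (-0.13), Foxn2 with no filter (-0.0061) and the GC trend removed (-0.27), Foxa2 (0.0543) with the GC trend removed and Foxp2 with the length trend removed (0.0713). With a tumor left out, log2 fold changes crossed 0 for Foxs1 (-0.15 to 0.29, below 0 without control replicate 1 or WDR11OE replicate 3), Foxn2 (-0.0087 to 0.0911, below 0 without WDR11OE replicate 2), Foxp2 (-0.25 to 0.0606, above 0 without control replicate 1) and Foxj1 (-0.84 to 0.19, above 0 without control replicate 2). Wdr11 was 0.19 with upper quartile scaling and 0.32 with the length trend removed, where it passed, and -0.0225 with the GC trend removed. The higher count of FOXO targets was 2 with voom, the 1 CPM filter and the summed tumors, and 2 to 3 with a tumor left out. For PI3K-AKT genes the higher count was 2 with no filter, 1 with the GC trend removed and 1 with the summed tumors, and 1 to 4 with a tumor left out. FOXM1 targets had 1 lower gene with the GC trend removed, 6 with the neuron covariate, 1 with the summed tumors and 1 to 3 with a tumor left out, and 1 higher gene with the GC trend removed, 2 with the summed tumors and 2 to 9 with a tumor left out. Cilia genes had 2 higher with DESeq2 and the neuron covariate, 0 with RLE scaling, no filter, the 1 CPM filter, the GC trend removed and the summed tumors, 0 to 1 with a tumor left out, and 2 lower with the GC trend removed. In the list of genes around the chromosome 13 trio, 1 was higher with no filter, the GC trend removed and the summed tumors. There were 5 higher with the neuron covariate and 1 to 4 with a tumor left out, and 0 to 1 were lower. Beside the chromosome 8 cluster, 0 were higher with the summed tumors and 0 to 1 with a tumor left out. The cause was not tested in any of these. For the 14 members with too few reads to enter the test, low depth and absent expression cannot be told apart. No paired analysis was possible because the labels give no replicate numbers and those used here are in accession order.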
